A study of Rattus norvegicus with 10 samples.

Results

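Interferon response and antigen-processing genes were followed in RCS cells, which derive from a rat cartilage tumour and keep features of chondrocytes. The group was fixed by name and holds 9 genes: the transcription factors Stat2, Irf9 and Irf1, the proteasome subunits Psmb8 and Psmb9, the peptide transporter subunits Tap1 and Tap2, and the interferon-induced proteins Bst2 and Ifi35. Of these, 7 had a row among the 10184 genes of the deposited table. No row carried the symbols Psmb8 or Tap2, which were not analysed here. Gene expression was measured by digital mRNA sequencing, 48 h after seeding, in 5 libraries of wild-type cells (WT) and 5 of cells in which ARSL, an arylsulfatase, had been knocked out (ARSL KO). All cultures were untreated and grown in the same serum-supplemented medium. The labels call the 5 libraries of a genotype biological replicates and state neither whether the KO cells came from 1 clone nor how the gene was disrupted, so the effect of the genotype and that of a line with its own history cannot be told apart. The genotype labels were not checked against the targeted gene, since neither Arsl nor Arse was among the symbols of the table.

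Type I interferons bind a receptor at the cell surface and activate the kinases Jak1 and Tyk2, which phosphorylate Stat2. With Irf9, Stat2 then enters a complex, ISGF3, that binds a DNA element named the ISRE in front of antiviral genes. Interferon gamma acts through another element, the GAS, and through Irf1, and raises the genes that cut and carry peptides for MHC class I. In those genes, Psmb8 and Psmb9 replace constitutive catalytic subunits of the proteasome, and Tap1 and Tap2 pump the peptides into the endoplasmic reticulum.

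Values are given as normalised reads, that is, reads divided by the size factor of the library. Differences are given on the variance-stabilized, log2-like scale of the table, on which folds of genes with few reads appear smaller than they are. The libraries held 2065594 to 2591819 reads in the listed genes. WT 3 and WT 4 stood apart from the other 8 libraries over the whole transcriptome: on the first principal component, which held 51.1% of the variance, they scored 28.0 and 26.8, ARSL KO 4 scored 7.91, and the other 7 libraries lay between -15.04 and -2.96. Results are therefore given with and without these 3 libraries. Of 13 chondrocyte markers, 11 had a row, among them Col2a1 and Acan, and their summed level was 47494 to 90227 normalised reads. In each of these 11 markers both WT 3 and WT 4 lay above WT 1, WT 2 and WT 5. Of 13 immune cell markers, 3 had a row, Cd14, Cd68 and Laptm5. Their summed level was 24.9 to 43.3 normalised reads in WT and 30.1 to 41.5 in KO, and in WT 3 and WT 4 it was at the low end, 24.9 to 26.3. Of 5 endothelial markers only Vwf had a row, at 39.2 to 44.9 normalised reads in WT 3 and WT 4, 13.5 to 39.1 in the other WT libraries and 9.23 to 29.3 in KO.

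The promoters of the members are shown first, since the elements named above define the pathway. Sequences come from RefSeq on the rat assembly GRCr8, which is not the build of the deposited table (rn6), and all 7 genes had an entry. Each run holds the 250 bases before the annotated start, 5′ to 3′ on the strand of the gene, with capitals on every match to an ISRE core (GAAA, then any 2 bases, then GAAA) or to a GAS (TTCNNNGAA), searched on both strands. The 4 members shown are those whose entry begins at the outer end of the gene. Ifi27 is added because it had the largest difference among the WT libraries described below.
Irf1, chr10:38417685-38417934, plus strand: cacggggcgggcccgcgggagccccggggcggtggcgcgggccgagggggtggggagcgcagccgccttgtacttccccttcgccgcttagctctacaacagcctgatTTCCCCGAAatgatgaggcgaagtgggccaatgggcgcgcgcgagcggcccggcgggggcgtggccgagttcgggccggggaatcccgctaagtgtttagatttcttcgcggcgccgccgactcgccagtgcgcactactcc
Tap1, chr20:4668544-4668793, minus strand: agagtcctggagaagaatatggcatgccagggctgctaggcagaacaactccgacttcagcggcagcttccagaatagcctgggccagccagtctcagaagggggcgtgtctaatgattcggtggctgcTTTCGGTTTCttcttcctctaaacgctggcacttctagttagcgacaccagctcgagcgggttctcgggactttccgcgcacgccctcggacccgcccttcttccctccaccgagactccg
Bst2, chr16:18254968-18255217, minus strand: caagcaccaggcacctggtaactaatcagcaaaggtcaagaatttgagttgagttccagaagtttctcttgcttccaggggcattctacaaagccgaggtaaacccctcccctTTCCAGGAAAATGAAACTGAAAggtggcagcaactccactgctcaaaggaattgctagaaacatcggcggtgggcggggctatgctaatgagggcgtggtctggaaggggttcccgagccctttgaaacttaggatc
Ifi35, chr10:86881020-86881269, plus strand: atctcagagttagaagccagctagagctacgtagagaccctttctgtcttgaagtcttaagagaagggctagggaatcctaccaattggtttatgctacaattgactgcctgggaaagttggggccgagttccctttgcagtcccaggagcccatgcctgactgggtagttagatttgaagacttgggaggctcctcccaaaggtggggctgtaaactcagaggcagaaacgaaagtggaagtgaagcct
Ifi27, chr6:128355062-128355311, plus strand: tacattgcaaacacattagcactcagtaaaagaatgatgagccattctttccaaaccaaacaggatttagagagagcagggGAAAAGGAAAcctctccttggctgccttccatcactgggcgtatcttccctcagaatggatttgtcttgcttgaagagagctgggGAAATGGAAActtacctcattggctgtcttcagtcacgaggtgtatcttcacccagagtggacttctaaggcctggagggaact
The Bst2 window held 2 overlapping ISRE cores and, overlapping the first of them, a GAS. The Tap1 window held 1 ISRE core, read on the opposite strand, and Irf1 held 1 GAS. Ifi35 held no match to either pattern. Of the windows not printed, that of Irf9 held a GAS and those of Stat2 and Psmb9 held neither. In all, 2 of the 7 members had an ISRE core, against 3.41% of 33469 promoter windows of the same length, and 3 had a GAS, against 7.67%. A match gives letters only and not a binding site.

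Loss of ARSL was the comparison of the design. No member passed the test of ARSL KO against WT: 0 of the 6 tested members were called by limma at an adjusted p under 0.05, where 1.14% of the 8431 tested genes were called. By direction, 0 members were called higher in KO, against 0.261% of tested genes, and 0 lower, against 0.878%. At an unadjusted p under 0.05 there was 1 member, Bst2, and 13.5% of all tested genes. In none of the 7 members did the KO values lie entirely above or below the WT values, against 4.26% of tested genes. The 6 tested members had a median difference, KO minus WT, of -0.07, and all tested genes one of 0.01. No member was called in any of the alternative settings, limma-voom on the recovered reads among them. Without WT 3, WT 4 and ARSL KO 4 the count was again 0 of 6, with 3.58% of all tested genes called and a median of 0.11 over the members. Without WT 3 and WT 4 only, it was 0 of 6 with 1.87% of tested genes called.

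**Figure D1:**
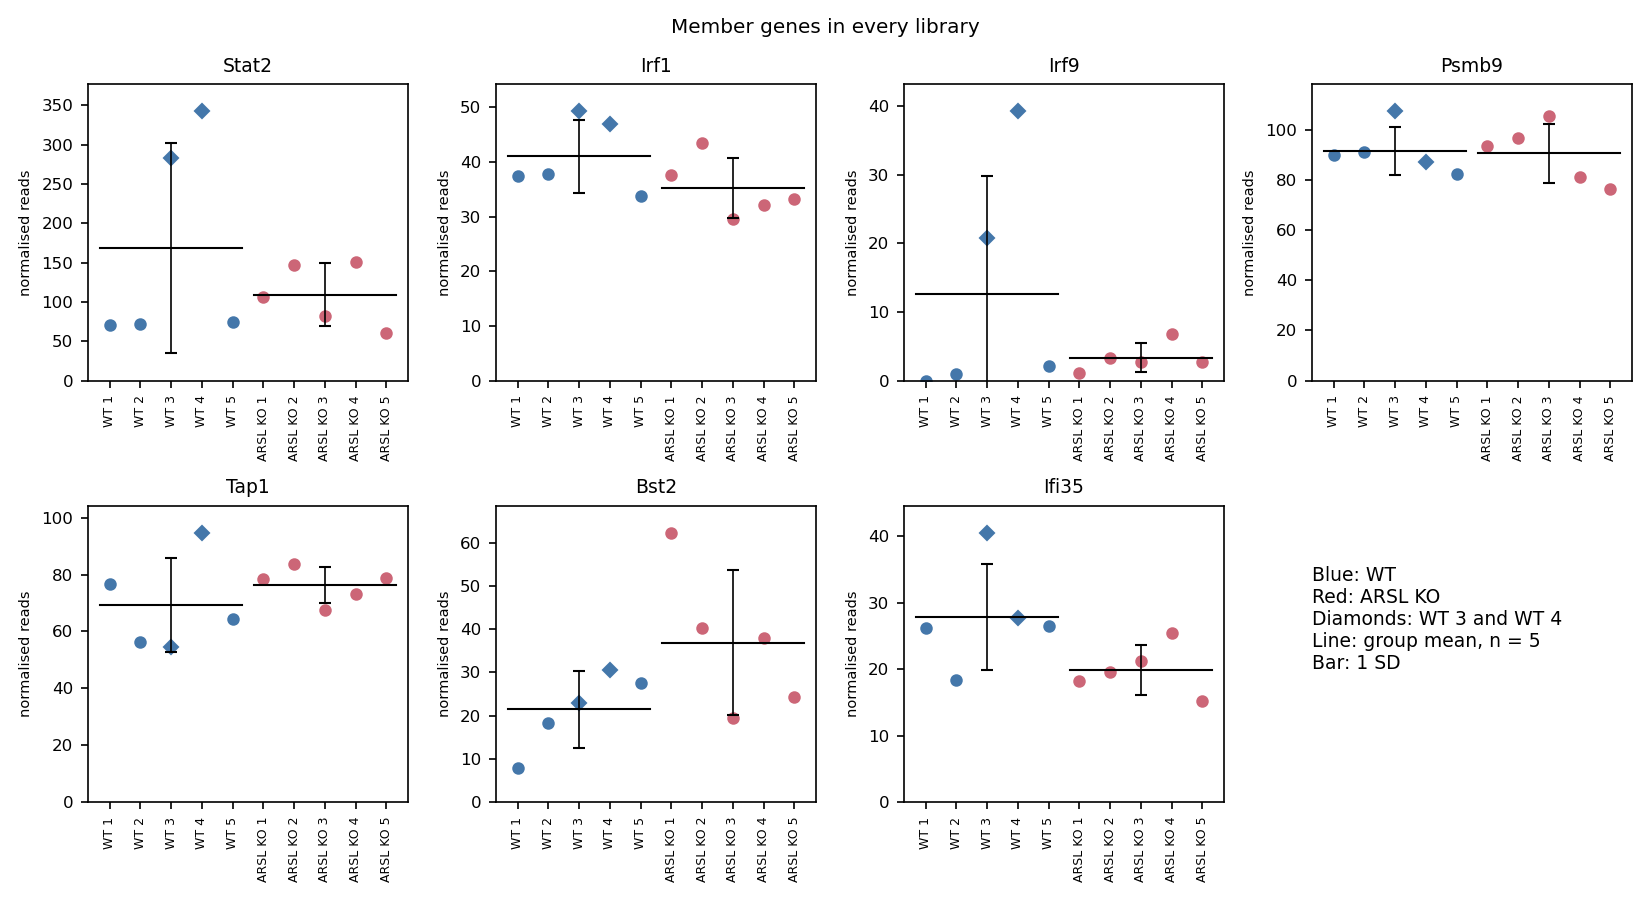
Normalised reads (vertical axes, from 0) of the 7 members with a row, in each WT (blue) and ARSL KO (red) library, with the group mean and 1 SD over 5 libraries; diamonds are WT 3 and WT 4. Stat2 and Irf9 are far higher in WT 3 and WT 4 than in the other 8 libraries, while Psmb9, Tap1 and Bst2 are not.

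Stat2 (ENSRNOG00000031081) is the subunit of ISGF3 that activates transcription. It had 70.6, 71.6, 283, 342 and 74.0 normalised reads in WT 1 to 5 and 106, 147, 82.2, 151 and 60.1 in ARSL KO 1 to 5. Highest of all were WT 3 and WT 4, while WT 1, 2 and 5 lay within a few reads of each other and the KO libraries spread to both sides of those 3. Mean levels were 168 ± 134 for WT and 109 ± 39.8 for KO (SD, n = 5 each). In log2-like units KO minus WT was -0.29 (SE 0.345), with a limma adjusted p of 0.735. Single WT libraries moved this value: it was -0.0677 without WT 3, -0.0074 without WT 4, and -0.46, -0.46 and -0.45 without WT 1, WT 2 or WT 5. It was -0.15 without ARSL KO 5. Without WT 3, WT 4 and ARSL KO 4 the difference turned to 0.28 (SE 0.149; limma adjusted p = 0.379).

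Irf9 (ENSRNOG00000019478) is the subunit that gives ISGF3 its DNA contact. Its normalised reads were 0, 0.968, 20.8, 39.2 and 2.11 in WT 1 to 5 and 1.07, 3.26, 2.77, 6.83 and 2.69 in ARSL KO 1 to 5. Again WT 3 and WT 4 were the highest, ARSL KO 4 came next, and the other 7 libraries were near the lower limit of detection. Irf9 stayed under the filter on low values, set at about 10.7 normalised reads. In the fit with no filter it differed by -0.25 (limma adjusted p = 0.73). Reads counted in WT 3 and WT 4 were 60 in all, against 3 in WT 1, WT 2 and WT 5. That is a 31.9-fold ratio per normalised read, and it rests on few reads. Outside WT 3 and WT 4, Irf9 had fewer reads than the 30 that every gene of the table reached over all libraries. Irf9 is thus in the table only through the pair in which it was high. The ratio is a description without a test, and no conclusion is drawn from the genotype p of Irf9.

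Irf1 (ENSRNOG00000008144), a transcription factor induced through the GAS, varied far less. It had 37.5, 37.7, 49.2, 46.8 and 33.8 normalised reads in WT 1 to 5, and 37.6, 43.4, 29.5, 32.2 and 33.2 in ARSL KO 1 to 5. The same pair was above the other 8 libraries, by a small margin over ARSL KO 2. The genotypes differed by -0.12 (SE 0.102; limma adjusted p = 0.625), and by -0.01 (SE 0.127) without the 3 libraries.

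The differences of the antigen-processing members between genotypes were within the spread of the libraries. Psmb9 (ENSRNOG00000000459), the interferon-induced beta1 subunit of the proteasome, had 89.8, 91.0, 107, 87.0 and 82.5 normalised reads in WT 1 to 5 and 93.4, 96.7, 105, 81.0 and 76.2 in ARSL KO 1 to 5. The groups overlapped over nearly their whole range. Mean levels were 91.5 ± 9.39 for WT and 90.5 ± 11.8 for KO (SD, n = 5 each), a difference of -0.01 (SE 0.0974; limma adjusted p = 0.966). Tap1 (ENSRNOG00000000457), which pairs with Tap2, had 76.7, 56.1, 54.7, 94.6 and 64.5 normalised reads in WT and 78.4, 83.6, 67.4, 73.2 and 78.9 in KO. WT 4 was the highest and WT 3 the lowest of all 10 libraries, so the pair that was high for Stat2 lay at opposite ends here. Tap1 differed by 0.11 between genotypes (SE 0.113; limma adjusted p = 0.699), and by 0.0555 without WT 3 and 0.19 without WT 4. In RefSeq's gene order on GRCr8, Tap2, Psmb8, Tap1 and Psmb9 follow each other on chromosome 20, and the promoter windows of Tap1 and Psmb9, which lie on opposite strands, overlap.

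Bst2 (ENSRNOG00000059900), or tetherin, holds budding enveloped viruses at the cell surface. It was the member with the largest difference between genotypes. Its normalised reads were 7.84, 18.4, 23.0, 30.6 and 27.5 in WT 1 to 5 and 62.3, 40.2, 19.4, 38.1 and 24.2 in ARSL KO 1 to 5. ARSL KO 1, 2 and 4 were above all WT libraries and ARSL KO 3 and 5 were within their range. Mean levels were 21.5 ± 8.90 for WT and 36.8 ± 16.8 for KO (SD, n = 5 each), a 1.72-fold ratio. The difference was 0.38 (SE 0.177; limma adjusted p = 0.37). Without the 3 libraries the difference was 0.48 (SE 0.179; limma adjusted p = 0.149).

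Ifi35 (ENSRNOG00000020678), a cytosolic protein induced by interferons, had 26.1, 18.4, 40.5, 27.7 and 26.4 normalised reads in WT and 18.3, 19.6, 21.2, 25.4 and 15.2 in KO. WT 3 was the highest library and WT 4 exceeded WT 5 by about 1 normalised read. The genotypes differed by -0.21 (SE 0.115; limma adjusted p = 0.438).

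**Figure D2:**
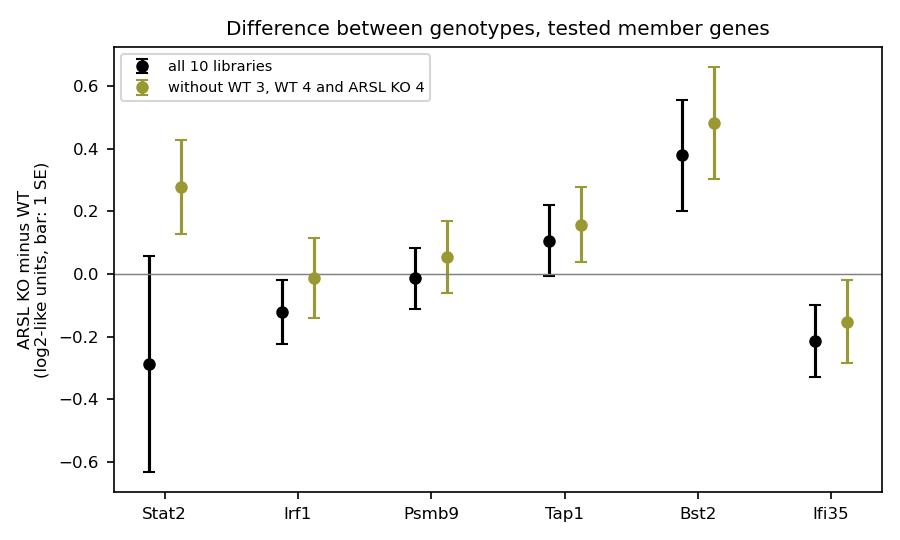
Difference ARSL KO minus WT (vertical axis, log2-like units) of the 6 tested members, with 1 SE, over all 10 libraries (black) and without WT 3, WT 4 and ARSL KO 4 (olive). Stat2 goes from -0.29 to 0.28 when the 3 libraries are left out, and Bst2 from 0.38 to 0.48; none passed the limma test in either fit.

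The other genes of the pathway were taken from 8 lists with 218 genes in all, the members included, of which 105 had a row and 78 were tested. None was called in ARSL KO against WT by limma, with 13, or 16.7%, at an unadjusted p under 0.05, against 13.5% of all tested genes; limma-voom also called 0. At the 1.14% called over all tested genes, fewer than 1 call would fall among 78 genes. The median difference was -0.10 over the 78 genes, and 0.00 over 75 tested without the 3 libraries. Of the 21 tested interferon-induced effector genes, 8, or 38.1%, had an unadjusted p under 0.05. In 18 of the 21 the mean was lower in KO, as in 4042 of all 8431 tested genes. Their median was -0.25, and 0.00 over the 19 tested without the 3 libraries. WT 3 and WT 4, in which most effector genes were higher, are part of the WT mean here. KO values lay entirely above WT in 1 of the 105 genes and entirely below in 2, against 172 and 232 of all 10184 rows. Cxcl11, a chemokine that attracts T cells, had KO values entirely below WT, at 20.5 ± 7.23 against 41.8 ± 13.4 normalised reads (SD, n = 5 each; limma adjusted p = 0.119). Trim14, an adaptor of antiviral signalling, had KO values entirely above WT, at 36.8 to 47.8 against 26.4 to 33.1 normalised reads (limma adjusted p = 0.22).

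In the other lists the member with the smallest p was Ifnar1 among receptors and kinases (-0.26, SE 0.122, limma adjusted p = 0.36), Irf2bp1 among feedback inhibitors (-0.28, adjusted p = 0.335) and Trim25, a ubiquitin ligase, among nucleic acid sensors (-0.34, adjusted p = 0.543). It was B2m, the light chain of MHC class I, for class I presentation (-0.49, adjusted p = 0.345), Ctsl, the protease cathepsin L, for class II (-0.47, adjusted p = 0.246), and Psmb6 for the constitutive proteasome subunits (0.23, adjusted p = 0.51). Without WT 3, WT 4 and ARSL KO 4, 1 of 75 tested list genes passed, against 3.58% of all tested genes. Ifi30, a lysosomal thiol reductase of class II presentation, was then higher in KO by 0.63 (SE 0.15; limma adjusted p = 0.0134). In the libraries kept it had 14.8, 11.6 and 20.1 normalised reads in WT and 54.8, 46.7, 35.1 and 23.3 in KO. WT 3 and WT 4 had 53.6 and 55.4 and ARSL KO 4 had 46.8. Over all 10 libraries the difference of Ifi30 was 0.29 (SE 0.211, limma adjusted p = 0.558). The 3 libraries were set apart by their values in these same data, so the p of Ifi30 without them is a description.

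Stat2, Irf9, Irf1, Psmb9 and Ifi35 differed more, in size, between WT 3 and WT 4 and the other WT libraries than between genotypes. Bst2 (0.30 against 0.38) and Tap1 (0.10 against 0.11) did not. The share of all rows that do the same was not counted. Since the pair stood apart over the whole transcriptome, this is not given as a trait of the members. WT 3 and WT 4 carry the same label as WT 1, WT 2 and WT 5 and the split was seen in these data, so it is described without a test. Both WT 3 and WT 4 were above WT 1, WT 2 and WT 5 in 4 of the 7 members, Stat2, Irf9, Irf1 and Ifi35, and in 26.3% of all rows of the table. In the same 4 members they were also above all 8 other libraries, as in 15.1% of all rows, and no member was below all 8, against 14.7%. Psmb9, Tap1 and Bst2 overlapped, as did Ifi35 after quantile normalization. Stat2 was 4.34-fold higher in normalised reads and differed by 1.67 on the log2-like scale, and Irf9 differed by 1.35. A difference of at least 1 upward was seen in these 2 of 7 members and in 1.14% of all rows, and one of at least 1 downward in 0 members and 0.491% of rows. Irf9 had 20 reads outside WT 3 and WT 4, and no gene of the table had fewer than 30 over all libraries, so Irf9 is in the table only through the pair in which it was high. Without such genes, 3 of 6 members and 26.0% of rows were above, and 1 of 6 members, Stat2, and 1.07% of rows differed by at least 1 upward. Bst2 had a mean of 26.8 normalised reads in WT 3 and WT 4 and 17.9 in the other WT libraries. Irf1 was 1.32-fold, Ifi35 1.44-fold, Tap1 1.14-fold and Psmb9 1.11-fold higher in the mean of WT 3 and WT 4. The 11 chondrocyte markers were above in the same 2 libraries; the part of this wider shift in the interferon values was not tested. In bulk cultures, fewer cells of a type and less RNA per cell cannot be told apart.

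**Figure D3:**
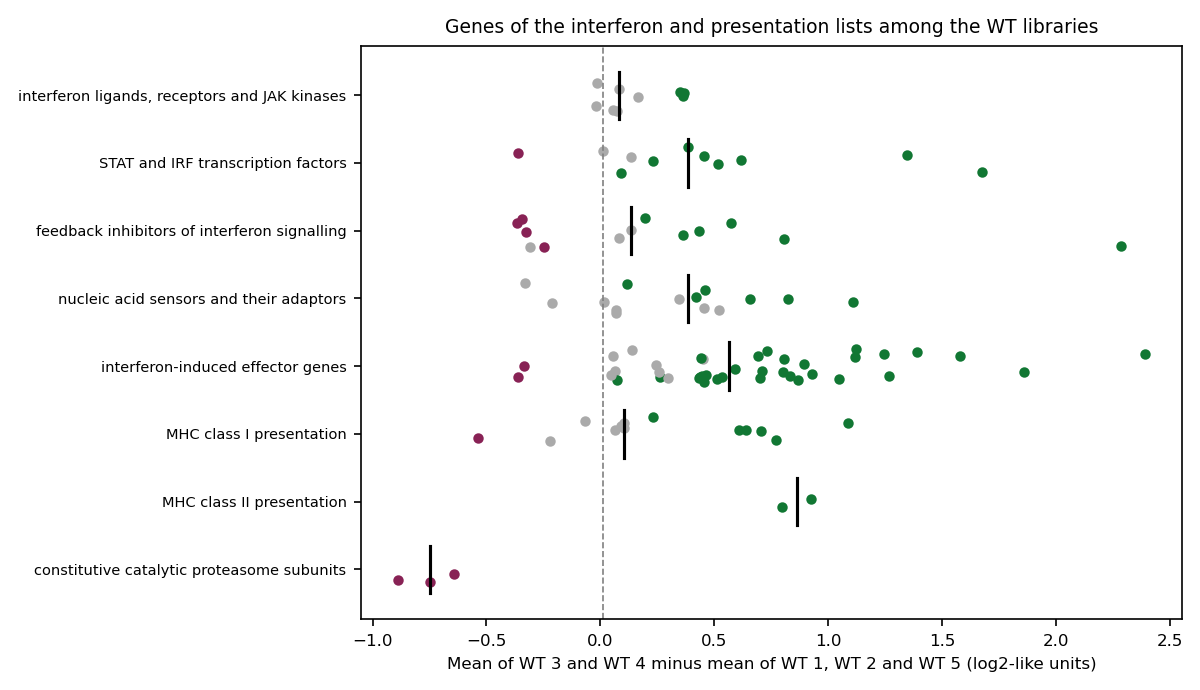
Mean of WT 3 and WT 4 minus mean of WT 1, WT 2 and WT 5 (horizontal axis, log2-like units) for each gene of the 8 lists; green, both WT 3 and WT 4 above the other 3; purple, both below; grey, overlapping; black bars, list medians; dashed line, median of all rows. The effector list reaches furthest to the right, with a median of 0.56, and all 3 constitutive proteasome subunits lie to the left. Over all rows, both WT 3 and WT 4 were above in 26.3% and below in 26.0%.

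Interferon-induced effector genes were mostly higher in WT 3 and WT 4. In 30 of 40 effector genes with a row, or 75.0%, both WT 3 and WT 4 were above WT 1, WT 2 and WT 5, against 26.3% of all rows, and in 2, Samhd1 and N4bp1, both were below, against 26.0%. The median difference was 0.56 over all 40 of these genes and 0.01 over all rows. The list was chosen with earlier results of these data known, so its share is a description. Of the 40 genes, 19 had a mean under the filter in WT 1, WT 2 and WT 5, and 9, Oasl2 and Rsad2 among them, had under 30 reads outside WT 3 and WT 4 and so are in the table only through that pair. Without these 9, 22 of 31, or 71.0%, were above. Bst2 and Ifi35 are among the 40. The genes with the largest differences were Ifi27, Cxcl10, Oasl2 and Rsad2.

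Ifi27, a small membrane protein induced by type I interferon, had 153, 160 and 186 normalised reads in WT 1, 2 and 5, 1042 and 1032 in WT 3 and WT 4, and 157 to 209 in the KO libraries. Only WT 3 and WT 4 left the narrow range of the other 8. Cxcl10, a chemokine, had 12.2, 17.4 and 17.97 in WT 1, 2 and 5, 142 and 135 in WT 3 and WT 4, and 4.48 to 12.7 in KO, where ARSL KO 4 was the highest. When WT 3, WT 4 and ARSL KO 4 were left out, the mean of Cxcl10 was under the filter and it was not tested. Over all libraries it differed by -1.15 between genotypes (SE 0.355, limma adjusted p = 0.155). Cxcl10 passed the filter only through WT 3 and WT 4, in which it was high, so this p is a description.

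Oasl2, a relative of the enzymes that sense double-stranded RNA, had 35.01 and 64.1 normalised reads in WT 3 and WT 4, 0.968 to 2.61 in the other WT libraries and 0.897 to 9.76 in KO. Rsad2, or viperin, an antiviral enzyme, had 21.9 and 21.0 in WT 3 and WT 4 and 0 in WT 1, 2 and 5. Set against a floor of 3 reads over those 3 libraries, Rsad2 was at least 22.3-fold higher. Among the KO libraries it was seen in ARSL KO 4 alone, at 1.95 normalised reads. ARSL KO 4 was the highest KO library in 21 of the 40 effector genes and in 3 of the 7 members, against 27.0% of all rows.

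**Figure D4:**
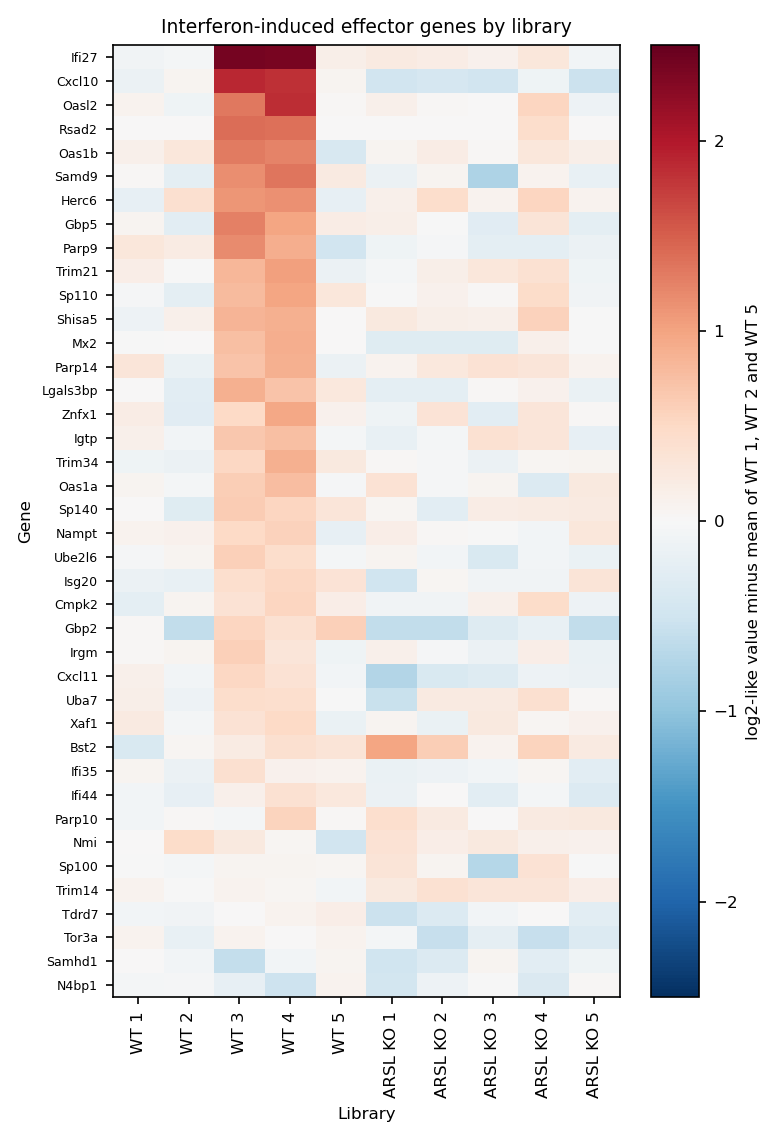
Log2-like value minus the mean of WT 1, WT 2 and WT 5 (colour) of the 40 effector genes with a row (rows, ordered by WT 3 and WT 4) in the 10 libraries (columns). WT 3 and WT 4 are red from Ifi27 down through most of the list.

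Upstream of these genes, the 7 ligand genes of the first list matched no row and were not analysed here. Their 9 receptor and kinase genes had rows; in 3 of them, Ifnar1, Il10rb and Jak2, both WT 3 and WT 4 were above, which is 33.3% against 26.3% of all rows. Ifnar1, a chain of the type I interferon receptor, had 117 and 110 normalised reads in WT 3 and WT 4 and 68.7 to 91.5 in the other WT libraries. Among STAT and IRF factors the count was 8 of 11, or 72.7%, with 1 below. The 8 include Irf9, which is in the table only through WT 3 and WT 4. Besides the members, Irf3, Stat3 and Stat6 were among the 8, at 1.72-fold, 1.45-fold and 1.47-fold higher. Irf3, which nucleic acid sensors activate, had 167 normalised reads on average in WT 3 and WT 4 and 97.5 ± 24.9 in WT 1, 2 and 5 (SD, n = 3).

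Among 13 feedback inhibitors 6, or 46.2%, were above and 4, or 30.8%, below, the latter near the 26.0% of all rows that were below. Usp18, which blocks the type I interferon receptor and strips ISG15 from proteins, had 140.0 and 118 normalised reads in WT 3 and WT 4, against 3.49, 3.87 and 8.46 in WT 1, 2 and 5 and 5.38 to 15.03 in KO. That was 24.4-fold in the mean. Socs1, an inhibitor of the JAK kinases, had 55.8 and 44.0 in WT 3 and WT 4 and 14.5 to 17.4 in the other WT libraries, but ARSL KO 4, at 45.9, lay between the pair. Socs2 and Pias3 were 1.77-fold and 1.56-fold higher. Among 14 sensors and adaptors 6, or 42.9%, were above, against 26.3% of all rows, and 0 below. Dhx58, a helicase of the RIG-I family, had 72.2 and 76.5 normalised reads in WT 3 and WT 4 and 15.7 to 21.1 in the other WT libraries. Trim25 was 2.02-fold higher. Adar, an RNA-editing enzyme, had 12.04 and 2.87 in WT 3 and WT 4 and overlapped the others.

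MHC class I presentation was divided. In 6 of 13 genes, B2m, Tapbp, Pdia3, Rfx5, Erap1 and Calr, or 46.2%, both WT 3 and WT 4 were above, against 26.3% of all rows. In 1, RT1-N3, both were below, and 6 overlapped, Psmb9 and Tap1 among them. After quantile normalization Calr overlapped and Canx was above. B2m had 2405 and 2208 normalised reads in WT 3 and WT 4, 1045 to 1098 in WT 1, 2 and 5 and 874 to 1196 in KO. Tapbp, or tapasin, which tethers class I molecules to the transporter, was 1.97-fold higher. Rfx5, a factor of MHC promoters, was 1.89-fold and Pdia3, a chaperone of the loading complex, 1.64-fold higher. B2m and Tapbp thus had about double the reads in WT 3 and WT 4, where Tap1 and Psmb9 had 1.14-fold and 1.11-fold as many. Of the class II genes, Ifi30 was 3.52-fold and Ctsl 1.77-fold higher.

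The proteasome was compared as the ratio of Psmb9 to Psmb6, the constitutive beta1 subunit it replaces, which does not depend on the scaling of a library. Psmb6 had 231 and 214 normalised reads in WT 3 and WT 4, against 363, 375 and 369 in WT 1, 2 and 5 and 319 to 397 in KO. Psmb5 and Psmb7, the other constitutive catalytic subunits, were also below WT 1, 2 and 5. Psmb5 had 353 and 314 against 563 to 610, and Psmb7 had 379 and 375 against 715 to 752. Over all rows, both WT 3 and WT 4 were below WT 1, 2 and 5 in 26.0% and below all 8 other libraries in 14.7%. The ratio Psmb9 over Psmb6 was 0.464 and 0.406 in WT 3 and WT 4, 0.247, 0.243 and 0.223 in WT 1, 2 and 5, and 0.200 to 0.279 in KO. In the ratio WT 3 and WT 4 were above all other libraries. Their Psmb6 was below all others, while Psmb9 was highest in WT 3 and within the range of the others in WT 4. Its mean was 0.317 ± 0.111 for WT and 0.250 ± 0.0299 for KO (SD, n = 5 each).

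**Figure D5:**
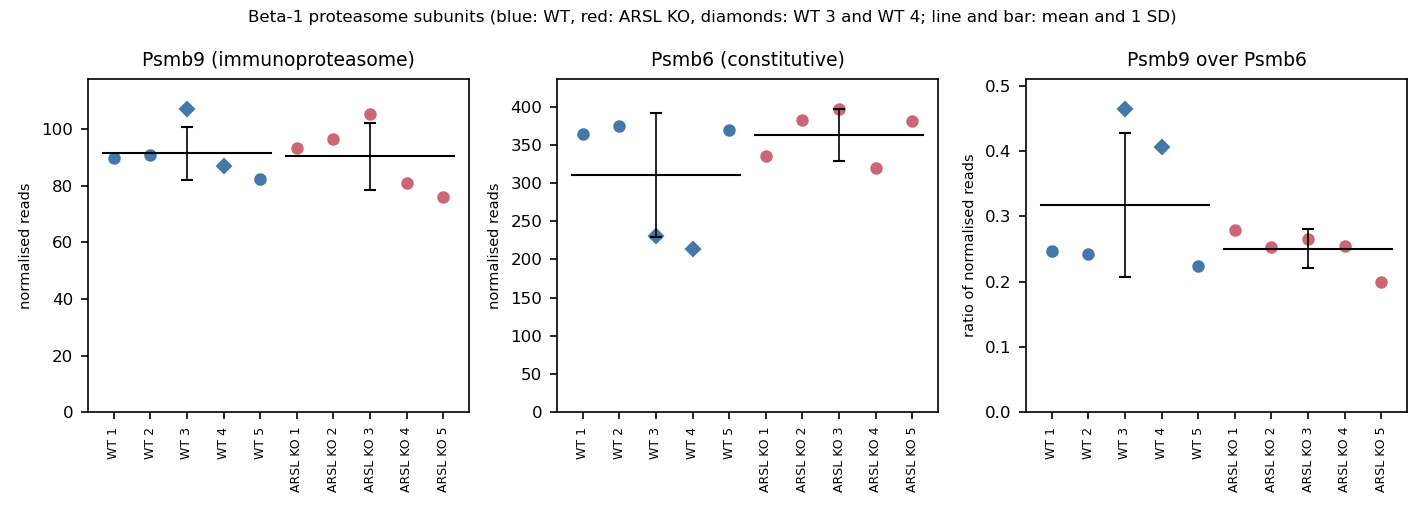
Normalised reads of Psmb9 and Psmb6 and their ratio (vertical axes, from 0) in each WT (blue) and ARSL KO (red) library, with the group mean and 1 SD; diamonds are WT 3 and WT 4. Psmb6 is lowest in WT 3 and WT 4, at 231 and 214, and the ratio is highest there, while Psmb9 overlaps in all groups.

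The members did not share 1 pattern over the libraries. Pearson's r between members ranged from -0.37 to 0.91 over 21 pairs and 10 libraries, with a median of 0.30. The highest was that of Stat2 and Irf9. Since Irf9 is in the table only through WT 3 and WT 4, where Stat2 was also high, its entry partly set that r. Stat2 had 0.77 with Irf1, 0.66 with Ifi35, 0.31 with Psmb9, 0.30 with Bst2 and 0.21 with Tap1. Over the 7 libraries without WT 3, WT 4 and ARSL KO 4, the median was 0.09 and r of Stat2 with Irf9 was 0.32. These are descriptions, since all values of a library share its depth and culture.

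The genes whose values most resembled the mean of the 6 tested members over 10 libraries were Ptov1, Prkcsh, C1r, Col2a1, Serpina6, Bles03, Fstl3, Abhd12, Pnrc1 and P4hb, with r from 0.94 to 0.97. None of these 10 is in the interferon lists, and Col2a1 is a chondrocyte marker. Over the 7 libraries they were Adamtsl4, Ube2q1, Bckdhb, Spart, Zfp449, Foxc2, Efcab14, Scap, Bahd1 and Cyp7b1, with r from 0.93 to 0.96. For Stat2 alone, a reference chosen after the values were seen, the nearest over 10 libraries were Ddit4, Cnmd and Ctsb, with r of 0.99, 0.98 and 0.98. Cnmd, or chondromodulin, is a cartilage matrix gene.

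ISRE cores stood both in genes that were above in WT 3 and WT 4 and in others. Of 35 effector genes with a promoter entry, 20 held an ISRE core in the 250 bases before the start. These were 16 of the 27 that were above in WT 3 and WT 4 and 4 of the other 8. Some of the 27, Oasl2 and Rsad2 among them, are in the table only through WT 3 and WT 4. Tap1 and Bst2, printed above with their ISRE cores, overlapped among the WT libraries. Stat2, which was 4.34-fold higher, had none in its window. That window is not like those of Tap1 and Bst2, since the Stat2 entry does not begin at the outer end of the gene. Ifi27 had 2 cores, Cxcl10, Oasl2 and Rsad2 had 1 each, and Usp18 had no entry. The windows are short, and elements outside them were not searched.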

How the data were processed

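The members and gene lists were chosen with earlier results of these data known. The submitters' processing notes name the rat build rn6 and the tools HTSeq, STAR 2.7.11a and bcl2fastq. The authors deposited variance-stabilized, log2-like values scaled by library size factors; the sources used here do not name the tool, the gene filter or the strand setting. A count of 0 has the value 4.42, the lowest. Inverting the transformation gave whole reads in every library (largest departure 8.47e-09 reads); these were divided by each library's size factor. No listed gene had fewer than 30 reads over the libraries, and 813 rows had no symbol. The 8431 genes whose mean exceeded that of a 0 count by 1 or more entered a linear model over all 10 libraries, fitted to the deposited log2-like values (limma 3.58.1, R 4.3.3) with an intensity trend, two-sided, Benjamini-Hochberg adjusted over all tested genes; the fit was tested on simulated data. Named genes were the members, called list genes (or, where a list had none, that with the smallest p), up to 4 genes a list with the largest difference of WT 3 and WT 4, and the 10 genes most like the members; Trim14, Samhd1, N4bp1, Erap1, Calr, RT1-N3 and the genes most like Stat2 were chosen after their values were seen. Some genes the rule names are not reported here. Of 3 planned proteasome ratios, Psmb9 over Psmb6 was computed; the others need genes not analysed here. Alternatives were other filters, scalings and variance models, limma-voom, a replicate block and left-out libraries. The p-values measure the spread between these libraries. Figures were drawn with matplotlib 3.10.9.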

Additional observations from a re-analysis of the deposited data

Results flagged for a closer look

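Each of 38 named genes was checked in both groups of 5 libraries for a library far from the other 4, 76 checks in all, of which 3 stood out; chance alone marks about 1 in 20. Rsad2 in ARSL KO stood out through ARSL KO 4, at 1.95 normalised reads where the other 4 had 0 (gap over range 1). Rfx5 in ARSL KO stood out through ARSL KO 4 as the highest library, at 88.8 normalised reads (gap over range 0.888). Adar in ARSL KO stood out through ARSL KO 5 as the lowest, at 0 normalised reads (gap over range 0.718), where the other libraries were near the lower limit too.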

How the results depend on the processing

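Over all genes, 96 calls of ARSL KO against WT became 60 with the stricter filter, 219 with array quality weights, 157 without WT 3 and WT 4, 300 without WT 3, WT 4 and ARSL KO 4, and 33 to 102 when libraries were left out singly. That count was lower by over 1.5 times without WT 3 (56), ARSL KO 1 (53), ARSL KO 2 (37), ARSL KO 3 (33) or ARSL KO 5 (37). The count of called members was 0 in all these fits. Called list genes went from 0 to 1 with the replicate block (Cxcl10, limma adjusted p = 0.0375). Cxcl10 passed the filter on low values only through WT 3 and WT 4, in which it was high, so this call is a description. The count also went from 0 to 1, Ifi30, without WT 3 and WT 4, a split seen in these data. Its limma adjusted p was 0.019 with ARSL KO 4 kept and 0.0134 without it. With 1 library left out, the count was 0 throughout. The block gave 136 calls over all genes. Same-numbered libraries had correlations of deviations of -0.293 to 0.587. WT 4 and WT 5 correlated best with their own number, and the other WT libraries did not. The labels do not say whether the numbers pair the samples, and these correlations cannot decide it. Stat2 turned positive with array quality weights (0.16), without WT 3 and WT 4 (0.38) and without the 3 libraries (0.28). Psmb9, near 0, turned positive in those settings (0.0288, 0.0274 and 0.0543) and without WT 3, ARSL KO 4 or ARSL KO 5, with -0.0544 to 0.0294 over all single libraries left out, and Psmb6 turned negative without WT 3 and WT 4 (-0.0256). The cause of these changes was not tested. Quantile normalization left 3 of 4 members above in WT 3 and WT 4; of 61 list genes 57 stayed, Stat5b, Ifi35, Sp100 and Calr were lost and Canx was gained. Median centring kept 58, without Stat5b, Tbk1 and Sp100. The reads per library limit Irf9 and other genes under about 10.7 normalised reads.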
